A study of Mus musculus with 54 samples.

Results

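Transcripts of the proteasome were followed in cultured primary microglia of the mouse, the macrophages that live in the brain, that were given alpha-synuclein (aSyn) or were cultured beside cells that had been given it. The genes were taken by name: every entry of the count table whose symbol begins with Psma, Psmb, Psmc, Psmd or Psme followed by a number, which is 45 of 16632 entries. Of the 45, 44 encode parts of the proteasome, chaperones of its assembly or its activators, and 1, Psmc3ip, matches the name but encodes no subunit. The filter on low counts left 44 of the 45 among the 13169 genes tested. Psmb11, a subunit of the thymus, was not tested and had between 0 and 15 counts, and Psma8, a subunit of the testis, was tested close to the filter, at a mean of 1.12 CPM (counts scaled by library size).

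The proteasome degrades proteins that carry ubiquitin chains. Its core particle is a stack of rings of alpha subunits (Psma) and beta subunits (Psmb), and Psmb5, Psmb6 and Psmb7 are the beta subunits that cut peptide bonds. Interferons induce Psmb8, Psmb9 and Psmb10, which take the places of Psmb5, Psmb6 and Psmb7 in newly built cores and form the immunoproteasome, a source of peptides for MHC class I. A regulatory particle of ATPases (Psmc) and non-ATPases (Psmd) caps the core, binds ubiquitin and unfolds the substrate, and the activators (Psme) open the core.

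The microglia came from newborn C57BL/6 mice and were shaken off astrocyte layers grown in medium with L929 cell supernatant, with the cells of 2 brains pooled in a flask. Untreated cells (6 libraries from 4 experiments) received nothing, and aSyn-treated cells (4 libraries) received 1 µM aSyn carrying a green dye for 14 h, without co-culture. Donors had received the same aSyn, acceptors a violet dye and no aSyn, and the mixed cells were sorted apart by flow cytometry after 15, 30, 60, 150 or 300 min, while the labels do not say what was done to the donors and acceptors of 0 min, nor whether the untreated or the aSyn-treated cells passed through the sorter. All groups carry an experiment number from 1 to 4. The cells of experiments 1 to 4 were of passage 3, 1, 2 and 2. Experiments 1 and 2 are the only ones of passages 3 and 1, so neither can be told apart from its passage. Donors and acceptors were measured in 4 experiments at each time, apart from 3 for both at 0 min, for donors at 60 min and for acceptors at 300 min. The 2 untreated libraries of experiment 2 and the 2 of experiment 4 were summed within their experiment, which left 52 units for the tests. Nothing in the labels says that the numbers stand for separate animals, so the tests measure the spread between these samples.

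Libraries were made from the 3′ ends of transcripts and held between 7807389 and 15537493 counts, of which the proteasome genes took 0.461 to 0.878%. Such counts do not allow levels to be compared between genes, so each gene is compared between groups. Experiment 4 carries facility numbers of its own, and the ribosomal RNA precursor Rn45s took 18.2% of its counts on average against 6.60% in the others. The 9 microglia markers summed to between 1968 and 8659 CPM in the 52 units, the 6 astrocyte markers to between 7.16 and 107.7 CPM, the 4 of the oligodendrocyte lineage to between 54.3 and 446 CPM, the 2 of endothelium to between 26.5 and 105 CPM and the 4 of neurons to at most 4.97 CPM. In a bulk sample fewer cells of a type and less RNA per cell cannot be told apart.

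Most proteasome transcripts stood slightly higher in cells given aSyn than in cells given nothing. Psmb6, which cuts after acidic residues in the constitutive core, was 1.53-fold higher and was the 1 gene of the 44 that passed edgeR's quasi-likelihood test (Benjamini-Hochberg adjusted p under 0.05), where 2.5% of all genes passed (1.60% higher and 0.896% lower). With the experiment number as a block, which removes differences in level between experiments, 19 of the 44 passed (43.2%), all of them higher. Of all genes 19.2% passed (8.95% higher and 10.2% lower). Both fits took their spread from all 52 units. Their p thus does not measure how a difference such as that with aSyn varied between experiments. The 19 belonged to the core, the regulatory particle and its chaperones and included none of Psmb8, Psmb9 and Psmb10. For this comparison, log2 fold changes ± SE of subunits are from the fit without the block, apart from values of Psmb6 and Psmb9 marked otherwise. At an unadjusted p under 0.05, 17 of the 44 passed without the block and 31 of the 44 with it. Both are larger shares than the 17.1 and 32.5% of all genes that did.

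Psmb6 stood at 264.1, 407, 276 and 247.9 CPM in untreated cells of experiments 1 to 4 and at 371, 487, 443 and 527 CPM in aSyn-treated cells. The groups overlapped, because untreated cells of experiment 2 were above aSyn-treated cells of experiment 1, but within each experiment the aSyn-treated cells were higher. The log2 fold change was 0.61 ± 0.14 (SE, adjusted p = 0.00719), and 0.62 ± 0.10 with the block (adjusted p = 4.68e-05). Without the block the call was lost when experiment 3 or experiment 4 was left out, at log2 fold changes of 0.60 and 0.47, and when only the groups compared were fitted (0.63, adjusted p = 0.226).

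Psmb5, the constitutive subunit that cuts after hydrophobic residues, stood at 159, 167, 144 and 138 CPM in untreated cells and at 149, 204, 213 and 324 CPM in aSyn-treated cells. It was higher in experiments 2, 3 and 4 and lower in experiment 1, and the groups overlapped. Its log2 fold change of 0.55 ± 0.23 passed with the block only (adjusted p = 0.191 without it and 0.0303 with it). Psmb7, which cuts after basic residues, stood at 93.4, 132, 106 and 69.7 CPM against 101, 133, 128 and 126 CPM. Psmb7 was higher in each experiment, but its log2 fold change of 0.28 ± 0.16 passed neither test (adjusted p = 0.381, and 0.0908 with the block).

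The ATPases of the regulatory particle, which unfold substrates and thread them into the core, were higher in aSyn-treated cells in each of the 4 experiments, all 6 of them, and 5 passed with the block. Psmc1 stood at 101, 124, 97.8 and 121 CPM in untreated and at 119, 191, 142 and 256.2 CPM in aSyn-treated cells. Aside from experiment 1, its aSyn-treated values were above all untreated ones. Its log2 fold change of 0.67 ± 0.24 was the largest of the 44, with an adjusted p of 0.125 without and 1.34e-04 with the block. Psmc6 had 0.60 ± 0.21 (adjusted p = 0.00182 with the block) and Psmc2 had 0.42 ± 0.19 (0.0254). Psmc3 and Psmc4 passed with the block as well, and Psmc5 did not.

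Among the non-ATPases, which hold ubiquitin receptors and form the lid, 6 of 11 passed with the block. These were Psmd11, Psmd7, Psmd12, Psmd1, Psmd6 and Psmd13. Without the block the lid subunit Psmd11 had a log2 fold change of 0.65 ± 0.38, Psmd7 of 0.47 ± 0.26 and Psmd12 of 0.41 ± 0.17. Psmd11 rested most on experiment 4: its differences between aSyn-treated and untreated cells were -0.04, 0.12, 0.60 and 1.39 in experiments 1 to 4. Of the assembly chaperones of the regulatory particle, Psmd5 and Psmd10 passed with the block and Psmd9 did not. Without the block Psmd5 had 0.57 ± 0.26 and Psmd10 had 0.41 ± 0.17.

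In the alpha ring, which gates the core, 3 of 7 passed with the block, Psma7, Psma3 and Psma1. Without the block Psma7 had a log2 fold change of 0.58 ± 0.22 and Psma3 of 0.47 ± 0.25. Of the 4 beta subunits without a catalytic site of their own, Psmb4 passed with the block. None of the 5 activator genes passed. Psme1 and Psme2, the subunits of the interferon-induced activator PA28, had log2 fold changes of 0.40 ± 0.28 and 0.57 ± 0.32 (adjusted p = 0.496 and 0.361, and 0.104 and 0.0779 with the block). The nuclear activator Psme3 had 0.01 ± 0.17 (adjusted p = 0.983).

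The shift was small and uneven between experiments. Of the 44 genes, 41 had a positive log2 fold change, with a median of 0.39, while the median over all genes tested was -0.04. Below 0 were Psmc3ip at -0.79 ± 0.47, Psma8 at -0.60 ± 0.69 and Psmb9 at -0.02 ± 0.52, none of which passed. In all 4 experiments 24 of the 44 were higher (54.5%), against 14.8% of all genes tested. The median difference of the 44 was 0.10 in experiment 1, 0.11 in experiment 2, 0.31 in experiment 3 and 0.95 in experiment 4, and experiment 4 gave the largest difference for 39 of the 44. Leaving out experiment 1, 2, 3 or 4 left 15, 14, 6 and 7 genes passing with the block, so that the count from experiments 1 to 3 was 7. Fewer samples enter these fits, and the share of all genes that passed in them is not given here.

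Markers of other cells moved along this comparison. The 6 astrocyte markers summed to 10.4, 17.9, 64.3 and 108 CPM in untreated cells of experiments 1 to 4 and to 13.8, 10.7, 13.9 and 20.7 CPM in aSyn-treated cells. Their median log2 fold change was -2.14, and with the block 4 of the 6 were lower, as was 1 of 4 of the oligodendrocyte lineage, while 1 of 2 endothelial markers was higher. Of the 9 microglia markers 1 was higher and 2 were lower with the block. Experiments 3 and 4, with the widest gaps in astrocyte markers, also had the widest gaps in proteasome transcripts, and their part in the result was not tested.

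**Figure D1:**
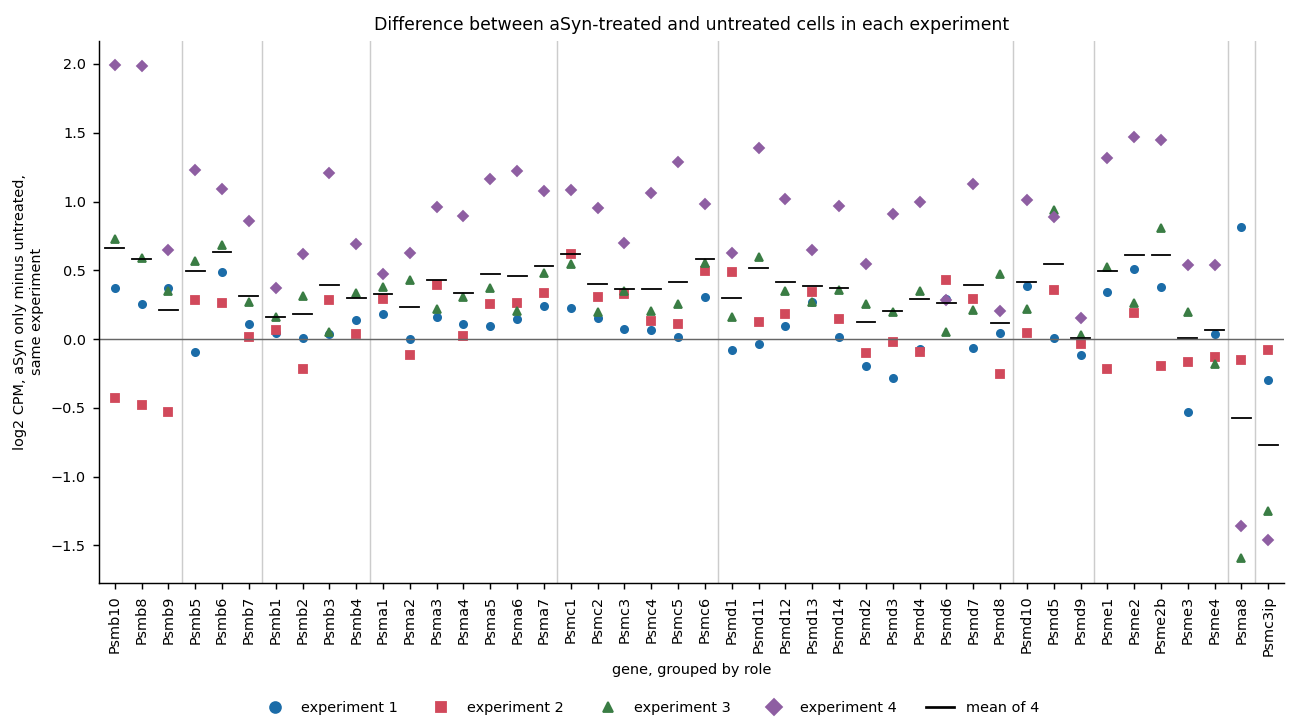
Difference in log2 CPM between aSyn-treated and untreated cells of the same experiment for each of the tested genes, grouped by role, with 1 point per experiment. Experiment 4 gives the largest difference for 39 of the 44 genes, and Psmb8, Psmb9 and Psmb10 are below 0 in experiment 2.

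The immunoproteasome subunits did not differ in the same direction with aSyn in all experiments. Psmb8 stood at 195, 593, 222 and 113 CPM in untreated cells and at 232.5, 425, 334 and 446 CPM in aSyn-treated cells. Untreated cells of experiment 2 held the highest and those of experiment 4 the lowest of these 8 values, with all aSyn-treated cells between them. The differences within experiments were 0.25, -0.48, 0.59 and 1.98, and the log2 fold change of 0.36 ± 0.41 did not pass (adjusted p = 0.709, and 0.254 with the block).

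Psmb10 stood at 127, 367, 142 and 62.3 CPM in untreated and at 164, 273, 234.03 and 247.7 CPM in aSyn-treated cells, with the same experiments highest and lowest. Its differences were 0.37, -0.43, 0.72 and 1.99, and its log2 fold change was 0.40 ± 0.41 (adjusted p = 0.667, and 0.145 with the block). Psmb9 stood at 38.5, 101, 35.6 and 14.2 CPM against 49.9, 70.1, 45.3 and 22.4 CPM, with differences of 0.37, -0.53, 0.35 and 0.65. All 3 genes were thus lower with aSyn in experiment 2 and higher in the others. The log2 fold change of Psmb9 was -0.02 ± 0.52 (adjusted p = 0.993) and 0.16 ± 0.20 with the block (0.627), so that its sign turned. Without experiment 4 the log2 fold change of Psmb8 was -0.02, and without experiment 2 that of Psmb9 was 0.44.

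The mean log2 CPM of Psmb8, Psmb9 and Psmb10 minus that of Psmb5, Psmb6 and Psmb7 gives an immunoproteasome index. Its zero has no meaning with 3′ counts, and only its differences between groups are read. Between aSyn-treated and untreated cells it differed by 0.16, -0.66, 0.05 and 0.48 in experiments 1 to 4, with a mean of 0.01 ± 0.48 (SD, n = 4). The index was higher in 3 experiments and lower in 1, by amounts larger than the mean.

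**Figure D2:**
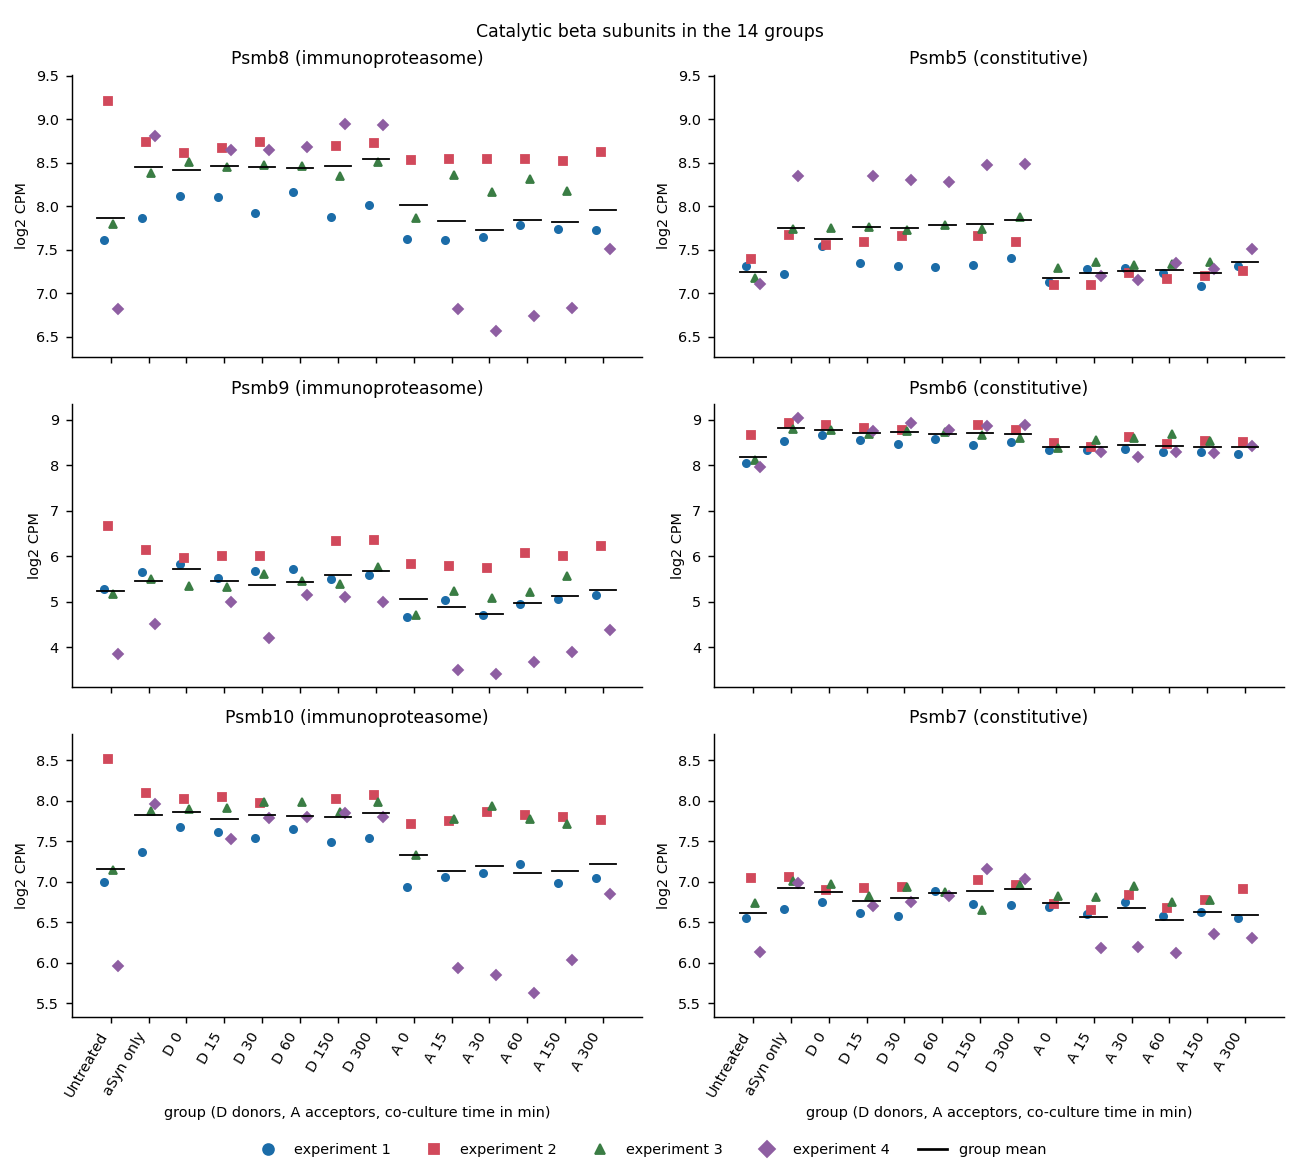
log2 CPM of Psmb8, Psmb9 and Psmb10 and of Psmb5, Psmb6 and Psmb7, whose places they take, in the 14 groups, with 1 point per unit marked by experiment. Psmb8 in untreated cells runs from 113 CPM in experiment 4 to 593 CPM in experiment 2, a wider range than the 138 to 167 CPM of Psmb5.

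Genes of interferon signalling differed between experiments in the same directions. The 15 genes on that list summed to 1732, 8508, 2174 and 1167 CPM in untreated cells and to 2383, 3662, 2735 and 4268 CPM in aSyn-treated cells, again highest in untreated cells of experiment 2 and lowest in those of experiment 4. Isg15, a ubiquitin-like protein induced by interferon, differed by 0.80, -1.22, 1.09 and 4.31 in experiments 1 to 4, and the transcription factor Irf7 by 0.91, -0.70, 0.99 and 4.39. Tap1, a peptide transporter that feeds MHC class I, differed by 0.64, -0.56, 0.25 and 2.23. Of the interferon genes themselves, Ifnb1 had 181 counts over all libraries, and Ifng had no entry among the counts analysed here. The part of interferon in the levels of Psmb8, Psmb9 and Psmb10 was not tested.

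Over the 52 units, after each experiment's mean was removed, the genes outside the proteasome that followed the mean of Psmb8, Psmb9 and Psmb10 most closely were Isg15 (Pearson's r = 0.971), Fcgr1 (0.971), Ifi209 (0.969), Zbp1 (0.969) and Tap1 (0.967). Psmb8 and Psmb10 had r = 0.975 with each other, and Psmb9 had 0.810 with Psmb8 and 0.812 with Psmb10. Psmb8 had r = 0.948 with Psme1 and 0.90 with Psmb5. Most other subunits followed the mean of Psmb5, Psmb6 and Psmb7, and the exceptions were Psmd8 (-0.31), Psmd9 (0.00), Psma8 (-0.13) and Psmc3ip (-0.42), while the other genes had between 0.566 and 0.943. With the mean of Psmb8, Psmb9 and Psmb10 the same 4 genes had -0.27, 0.02, -0.07 and -0.37 and the others outside these 3 had between 0.419 and 0.967, so that most subunits followed both means. The units share experiments, so these correlations are descriptions with no p.

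**Figure D3:**
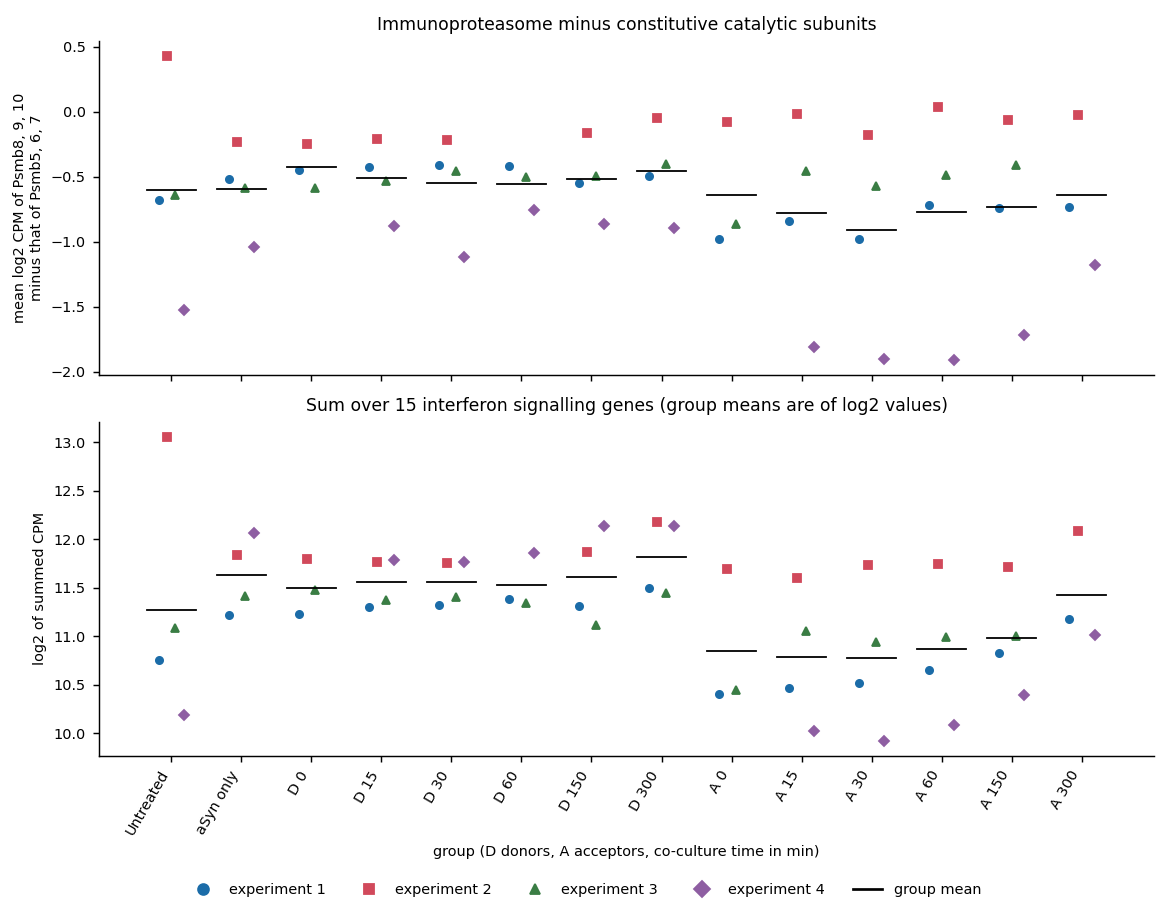
Immunoproteasome index (a difference of mean log2 CPM) and log2 of the summed CPM of 15 interferon signalling genes in the 14 groups, with 1 point per unit marked by experiment. The sum is highest in untreated cells of experiment 2, at 8508 CPM, and lowest in acceptors of experiment 4 at 30 min, at 971 CPM.

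In mm10, Psmb9 (chromosome 17, 34181987 to 34187764, minus strand) and Psmb8 (chromosome 17, 34197721 to 34201454, plus strand) flank Tap1, and all are protein-coding. Psmb9 and Tap1 run in opposite directions and overlap by 212 bp at their 5′ ends, away from the 3′ ends that were counted. Tap1 ends 495 bp before Psmb8. Psmb10 lies on chromosome 8 (105935735 to 105938444, minus strand), Psmb5 on chromosome 14 (54614119 to 54618022, minus strand) and Psmb6 on chromosome 11 (70525367 to 70527858, plus strand). Psmb8, Psmb10, Psmb7 and Psme1 overlap annotated genes on the opposite strand, and whether the counting used strand is not given in the sources used here.

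The promoter windows below, of the immunoproteasome genes and Psme1 beside Psmb5 and Psmb6, are from RefSeq's table for GRCm38 (mm10) and run from 250 bases before to 50 bases after the start in that table. For Psmb8, Psmb9 and Psme1 the table's start lies inside the gene, and their whole windows are inside the annotated span that begins further upstream. They are shown because interferon and stress factors act at such sequences. Both strands were searched for GAAA, any 2 bases and GAAA, a core of the interferon-stimulated response element, for TTCNNNGAA, the gamma-activated site, and for TGACNNNGC, the antioxidant response element bound by Nfe2l1 and Nfe2l2, and capitals mark a match. The windows are chr17:34197945-34198244 (plus strand) for Psmb8, chr17:34187281-34187580 (minus) for Psmb9, chr8:105938343-105938642 (minus) for Psmb10, chr14:55578244-55578543 (plus) for Psme1, chr14:54617946-54618245 (minus) for Psmb5 and chr11:70525107-70525406 (plus) for Psmb6.
Psmb8: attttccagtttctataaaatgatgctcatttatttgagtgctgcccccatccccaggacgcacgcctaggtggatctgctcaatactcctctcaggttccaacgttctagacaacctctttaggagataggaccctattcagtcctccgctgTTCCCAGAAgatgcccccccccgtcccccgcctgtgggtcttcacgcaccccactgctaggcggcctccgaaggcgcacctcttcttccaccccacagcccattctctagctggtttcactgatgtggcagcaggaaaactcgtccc
Psmb9: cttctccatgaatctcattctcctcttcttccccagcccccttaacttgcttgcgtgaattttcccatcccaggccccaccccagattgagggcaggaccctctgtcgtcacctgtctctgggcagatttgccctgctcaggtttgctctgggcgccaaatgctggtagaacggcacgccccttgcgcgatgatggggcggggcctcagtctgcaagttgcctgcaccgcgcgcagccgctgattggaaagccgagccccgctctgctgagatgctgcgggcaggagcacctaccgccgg
Psmb10: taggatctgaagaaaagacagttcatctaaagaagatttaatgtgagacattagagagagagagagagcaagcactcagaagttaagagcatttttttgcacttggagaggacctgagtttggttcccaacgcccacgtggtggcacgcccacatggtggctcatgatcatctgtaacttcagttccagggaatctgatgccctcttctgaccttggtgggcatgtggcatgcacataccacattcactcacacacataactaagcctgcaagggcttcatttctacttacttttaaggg
Psme1: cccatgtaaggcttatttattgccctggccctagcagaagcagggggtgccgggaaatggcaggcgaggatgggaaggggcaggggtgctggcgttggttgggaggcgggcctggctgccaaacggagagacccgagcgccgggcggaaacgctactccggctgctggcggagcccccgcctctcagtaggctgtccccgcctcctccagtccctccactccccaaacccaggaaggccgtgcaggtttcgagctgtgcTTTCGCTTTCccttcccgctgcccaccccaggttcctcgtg
Psmb5: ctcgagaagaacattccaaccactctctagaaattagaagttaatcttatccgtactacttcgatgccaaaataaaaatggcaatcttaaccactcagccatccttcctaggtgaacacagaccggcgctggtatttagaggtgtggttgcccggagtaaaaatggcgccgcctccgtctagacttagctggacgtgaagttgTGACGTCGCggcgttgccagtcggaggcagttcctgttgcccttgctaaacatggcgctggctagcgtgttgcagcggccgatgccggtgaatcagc
Psmb6: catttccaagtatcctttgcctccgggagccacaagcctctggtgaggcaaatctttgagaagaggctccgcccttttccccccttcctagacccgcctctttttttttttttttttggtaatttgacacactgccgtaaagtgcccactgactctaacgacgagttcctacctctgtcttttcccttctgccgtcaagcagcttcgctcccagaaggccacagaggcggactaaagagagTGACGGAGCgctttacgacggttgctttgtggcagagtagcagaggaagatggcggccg

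Psmb8 held 1 match to the gamma-activated site, beginning 97 bases before the table's start, and Psmb9 and Psmb10 held none of the 3 patterns in these windows. Psme1 held 1 match to the interferon-stimulated element, beginning 9 bases after its start on the opposite strand. Psmb5 and Psmb6 held 1 match each to the antioxidant element, beginning 47 and 9 bases before their starts. Psme2, not shown, held none of the 3. Of 27025 promoter windows of this length, 3.49% held the interferon-stimulated element, 8.47% the gamma-activated site and 12.5% the antioxidant element. Windows were found for 38 of the 45 genes, and of the 32 of these subunits outside the immunoproteasome, Psme1 and Psme2, 6 held the antioxidant element (18.8%), 3 the interferon-stimulated element (9.38%) and 1 the gamma-activated site (3.12%). A match is a run of letters and not a measured binding site.

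Genes that act with the proteasome were taken from lists by role. Nfe2l1, a transcription factor that raises subunit genes when proteasome activity falls, rose from 83.6 ± 20.6 CPM in untreated to 166 ± 53.7 CPM in aSyn-treated cells (SD, n = 4). It was higher by 0.52, 0.87, 0.93 and 1.497 in experiments 1 to 4. Nfe2l1 had a log2 fold change of 0.99 and passed without the block (adjusted p = 0.0241) and with it (adjusted p = 3.45e-04), the 1 of 4 genes of subunit transcription to do so.

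With the block, where 8.95% of all genes were higher and 10.2% lower, 2 of 13 assembly and regulation genes were higher, the ubiquitin receptor Adrm1 (log2 fold change with the block 0.61) and the stress-induced Zfand2a (0.49). Pomp, the chaperone of core assembly, had -0.09 and did not pass. Of 7 shuttle and unfolding genes, the 3 parts of the segregase that extracts ubiquitinated proteins were higher, Vcp at 0.36, Nploc4 at 0.42 and Ufd1 at 0.38, and the shuttle Ubqln2 was lower, at -0.41. The polyubiquitin gene Ubb was higher (0.66). Of 8 antigen processing genes Tapbp, which loads peptides onto MHC class I, was higher (0.68), and Tap1 (0.53) did not pass. Of 15 interferon genes the receptor chain Ifngr2 was higher (0.54) and its partner Ifngr1 lower (-0.47), and the factor Irf1 (-0.44) did not pass. In lists of this size the counts of the assembly, antigen processing and interferon genes are near those shares of all genes.

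No change of a proteasome transcript was detected when aSyn-treated cells were co-cultured. In donors against aSyn-treated cells, 0 of the 44 genes passed at any of the 6 times in edgeR's test, without or with the block, and 0 in DESeq2 without or with it. Of all genes 0% passed at 0, 15, 30, 60 and 150 min and 0.0304% at 300 min, and with the block 0.304% at 300 min (0.0228% higher) and 0% at the others. At an unadjusted p under 0.05 none of the 44 passed without the block, and with it 2 did at 0 min and 1 at 30 min, below the 5.51 and 3.11% of all genes that did. The median log2 fold change of the 44 was -0.15 at 0 min and -0.05 to 0.01 at the other times, beside -0.02 to 0.01 over all genes tested. These 6 comparisons share the aSyn-treated cells.

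In the 22 donor units Psmb8 lay between 234.44 and 492 CPM, with a median of 363 CPM, and Psmb6 between 351 and 490.5 CPM. Both ranges overlapped those of aSyn-treated cells given above. Over the 6 times the log2 fold changes with the block against aSyn-treated cells were -0.15 to 0.14 for Psmb8, -0.06 to 0.30 for Psmb9 and -0.17 to 0.12 for Psmb10. The constitutive subunits had -0.03 to 0.10 (Psmb5), -0.14 to -0.05 (Psmb6) and -0.17 to -0.01 (Psmb7), and the activators -0.25 to 0.07 (Psme1), -0.44 to 0.06 (Psme2) and -0.12 to 0.06 (Psme3). At 30 min the SE with the block was 0.31 for Psmb8 and 0.10 for Psmb6, so that changes of those sizes would not have been detected. The immunoproteasome index, which was not tested, differed from aSyn-treated cells by 0.02, 0.09, 0.05, 0.16, 0.08 and 0.14 on average at the 6 times. It was higher in every experiment measured at 15, 60 and 300 min, with SDs of 0.06, 0.11 and 0.08 (n = 4, 3 and 4).

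Acceptors, which were never given aSyn directly, were close to untreated cells in most subunits. None of the 44 genes passed at any time without the block, in edgeR or in DESeq2, where 0% of all genes passed at 0, 15 and 300 min, 0.114% at 30 min, 0.0683% at 60 min and 0.137% at 150 min. At an unadjusted p under 0.05, 1 of the 44 passed at each time from 0 to 60 min and 0 at 150 and 300 min, below the 5.47 to 8.22% of all genes that did. With the block 1 gene passed at each time from 15 to 150 min (2.27% of the 44), where 2.25, 3.60, 4 and 4.78% of all genes passed at 15, 30, 60 and 150 min. None passed with the block at 0 min (0.995% of all genes) or at 300 min (0.623%), where 3 of the 44 did at an unadjusted p under 0.05 each time, against 14 and 13% of all genes. A share of 1 in 44 is near or below that background. These 6 comparisons share the untreated cells.

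Markers of other cells were at lower levels in acceptors as well. The 6 astrocyte markers had median log2 fold changes of -2.30 to -1.67 over the 6 times, with 1, 2, 1 and 1 of them lower with the block at 15, 30, 60 and 150 min and none at 0 and 300 min. The 4 markers of the oligodendrocyte lineage had medians of -3.49 to -1.95, with 1 lower with the block at each time apart from 2 at 150 min. Their part in the results for Psmd8 and Psmd5 was not tested.

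At 15, 30 and 60 min the gene that passed in acceptors was Psmd8, a subunit of the lid. It stood at 374, 452, 368 and 290.4 CPM in untreated cells and at 555, 552, 826 and 427 CPM in acceptors at 30 min. Apart from experiment 4 the acceptors were above all untreated values, and each was above the untreated cells of its own experiment. The log2 fold change with the block was 0.42 ± 0.10 at 15 min (adjusted p = 0.0198), 0.63 ± 0.10 at 30 min (2.85e-04) and 0.44 ± 0.10 at 60 min (0.00895), and without the block the adjusted p was 0.757, 0.334 and 0.641. These calls were lost in fits with fewer samples: without experiment 3, 0 genes passed at each of the 3 times, and without experiment 1 none passed at 15 and 60 min.

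At 150 min the gene was Psmd5, a chaperone of the ATPase ring. It was higher in acceptors by 0.24, 0.37, 0.70 and 0.74 in experiments 1 to 4, with a log2 fold change of 0.49 ± 0.15 with the block (adjusted p = 0.0496, and 0.608 without it). That call was lost when experiment 2, 3 or 4 was left out. Psmb8, Psmb9 and Psmb10 did not pass in acceptors. Over the 6 times their log2 fold changes with the block against untreated cells were -0.17 to 0.01, -0.54 to -0.01 and -0.12 to 0.03. Psmb9 was lower in all 4 experiments at 30 min, by -0.53 ± 0.20 with the block (adjusted p = 0.139). The constitutive subunits had -0.04 to 0.09 (Psmb5), 0.19 to 0.23 (Psmb6) and -0.09 to 0.06 (Psmb7), and the activators -0.05 to 0.17 (Psme1), -0.47 to 0.15 (Psme2) and -0.27 to 0.01 (Psme3). The index differed from untreated cells by -0.34, -0.18, -0.31, -0.17, -0.13 and -0.05 on average at the 6 times, and was lower in all 3 experiments at 0 min (-0.34 ± 0.15, SD), while experiment 3 or 4 went the other way at later times.

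Donors held more of most proteasome transcripts than the acceptors of the same experiment and time. Without the block 0 of the 44 passed in edgeR's test at any time, while 0.251, 0.888, 0.805, 0.418, 0.167 and 0.0304% of all genes passed at 0, 15, 30, 60, 150 and 300 min. At an unadjusted p under 0.05, 2, 10, 11, 8, 10 and 4 of the 44 did. Of all genes 7.48, 11.5, 11.4, 9.85, 8.42 and 6.11% did, above the share of the 44 at 0 min and below it at the other times. DESeq2 without the block called 1 gene, Psma1 at 30 min. With the block 0, 9, 11, 7, 5 and 0 of the 44 passed at the 6 times, where 4.28, 9.57, 10.8, 6.70, 5.19 and 1.38% of all genes did. From 15 to 150 min these were 20.5, 25, 15.9 and 11.4% of the 44. The median log2 fold change of the 44 was 0.22, 0.32, 0.34, 0.32, 0.30 and 0.29, beside -0.03 to 0.00 over all genes tested.

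These counts changed when single experiments were left out of the fit. Leaving out experiment 1, 2, 3 or 4 left 5, 0, 2 and 4 genes with the block at 15 min, 7, 4, 2 and 6 at 30 min, 2, 1, 2 and 4 at 60 min and 1, 0, 0 and 4 at 150 min. At 0 min, where experiment 4 has no donors or acceptors, leaving its other libraries out of the fit raised the count from 0 to 13. The share of all genes that passed in these fits, which hold fewer samples, is not given here. In every experiment measured, 30, 27, 23, 28, 21 and 29 of the 44 were higher in donors at the 6 times, which is 68.2, 61.4, 52.3, 63.6, 47.7 and 65.9%, against 12.5 to 19.8% of all genes tested.

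Markers of other cells differed between donors and acceptors too. The astrocyte markers summed to less in donors at every time measured in experiment 3 (10.1 to 26.0 against 28.6 to 35.7 CPM) and in experiment 4 (8.01 to 16.8 against 20.2 to 29.4 CPM). They summed to more in donors at every time in experiment 1 (11.9 to 18.9 against 7.16 to 12.7 CPM), and experiment 2 went both ways. Of the 2 endothelial markers 1 was higher in donors at 15 and 30 min, with and without the block, and their median log2 fold change was 0.67 to 1.64 over the 6 times. The part of these markers in the result was not tested.

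The alpha subunit Psma3 passed with the block at 15, 30, 60 and 150 min, with log2 fold changes of 0.46, 0.46, 0.46 and 0.49. Psma7 passed at 15, 30 and 60 min (0.40, 0.36 and 0.50), and Psma5 and Psmb5 at 15, 30 and 150 min (0.61, 0.58 and 0.60 for Psma5 and 0.52, 0.49 and 0.58 for Psmb5). Of the regulatory particle, Psmc1 passed at 15 and 30 min and Psmc4 at 15 and 60 min (0.43 and 0.52). The deubiquitinase Psmd14 passed at 15 and 150 min (0.57 and 0.55) and Psmd7 at 30 min (0.40). The assembly chaperone Psmd10 passed at 15 and 60 min (0.40 and 0.46). In the core, Psma1 passed at 15 and 30 min (0.35 and 0.45), Psmb4 at 30 min (0.39) and Psma4 at 60 min (0.48). All of these were higher in donors.

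Psmb5 stood at 159, 201, 212 and 314 CPM in donors and at 156, 150.2, 160.3 and 142 CPM in acceptors at 30 min, higher in donors in each experiment and by the most in experiment 4. Over the 6 times Psmb6 and Psmb7 had log2 fold changes with the block of 0.29 to 0.38 and 0.11 to 0.37 and did not pass.

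Psmd8 was lower in donors than in acceptors at 30 min, with a log2 fold change of -0.42 ± 0.10 with the block (adjusted p = 0.00535, and 0.448 without it). It stood at 436, 423, 573 and 319 CPM in donors and at 555, 552, 826 and 427 CPM in acceptors. Each donor value was below the acceptors of its experiment, although the groups overlapped. At the other times Psmd8 had -0.25 to -0.05 and did not pass.

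Psme2, a subunit of PA28, had the largest log2 fold change of the genes that passed. It stood at 46.1, 46.1, 65.4 and 71.1 CPM in donors and at 27.9, 39.0, 30.8 and 19.9 CPM in acceptors at 30 min. All donors were above all acceptors at that time. The log2 fold change with the block was 0.95 ± 0.24 at 30 min (adjusted p = 0.00922), 0.89 ± 0.26 at 60 min (0.0327) and 0.80 ± 0.24 at 150 min (0.0424), and 0.21, 0.50 and 0.42 at 0, 15 and 300 min, where it did not pass. Psme2b, an intronless copy of Psme2 on chromosome 11 that overlaps other genes on its own strand, had 0.39 to 0.63 and did not pass. Reads of these near-identical genes may be split between them, so both are uncertain. Psme1 had 0.24 to 0.46 and Psme3 had 0.00 to 0.29 with the block, and neither passed.

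Of the immunoproteasome subunits, Psmb9 passed with the block at 30 min (0.63 ± 0.21, adjusted p = 0.0398) and at 60 min (0.75 ± 0.22, adjusted p = 0.0347). At 30 min it stood at 50.9, 64.5, 48.4 and 18.2 CPM in donors and at 25.8, 53.5, 33.4 and 10.5 CPM in acceptors, higher in donors in each experiment although the groups overlapped. Psmb8 and Psmb10 had log2 fold changes with the block of 0.41 to 0.71 and 0.54 to 0.78. Neither passed at any time, with adjusted p of 0.168 to 0.581 and 0.116 to 0.388.

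Both were higher in donors in every experiment measured at every time, and from 15 min on experiment 4 gave the largest difference. At 0 min, where experiment 4 was not measured, the differences were 0.49, 0.08 and 0.64 for Psmb8 and 0.74, 0.30 and 0.57 for Psmb10 in experiments 1 to 3. Psmb8 stood at 242.8, 426, 356 and 400.4 CPM in donors and at 199, 373, 285 and 94.2 CPM in acceptors at 30 min, with differences of 0.28, 0.19, 0.32 and 2.09 in experiments 1 to 4, and those of Psmb10 were 0.43, 0.11, 0.04 and 1.94. The interferon list summed to 2551, 3467, 2700.4 and 3473 CPM in these donors and to 1465, 3415, 1967 and 971 CPM in these acceptors, again furthest apart in experiment 4, and its part in the result was not tested. The immunoproteasome index was higher in donors by 0.21, 0.27, 0.36, 0.48, 0.21 and 0.16 on average at the 6 times, with SDs between experiments of 0.17 to 0.60, and the difference changed sign between experiments at each time.

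**Figure D4:**
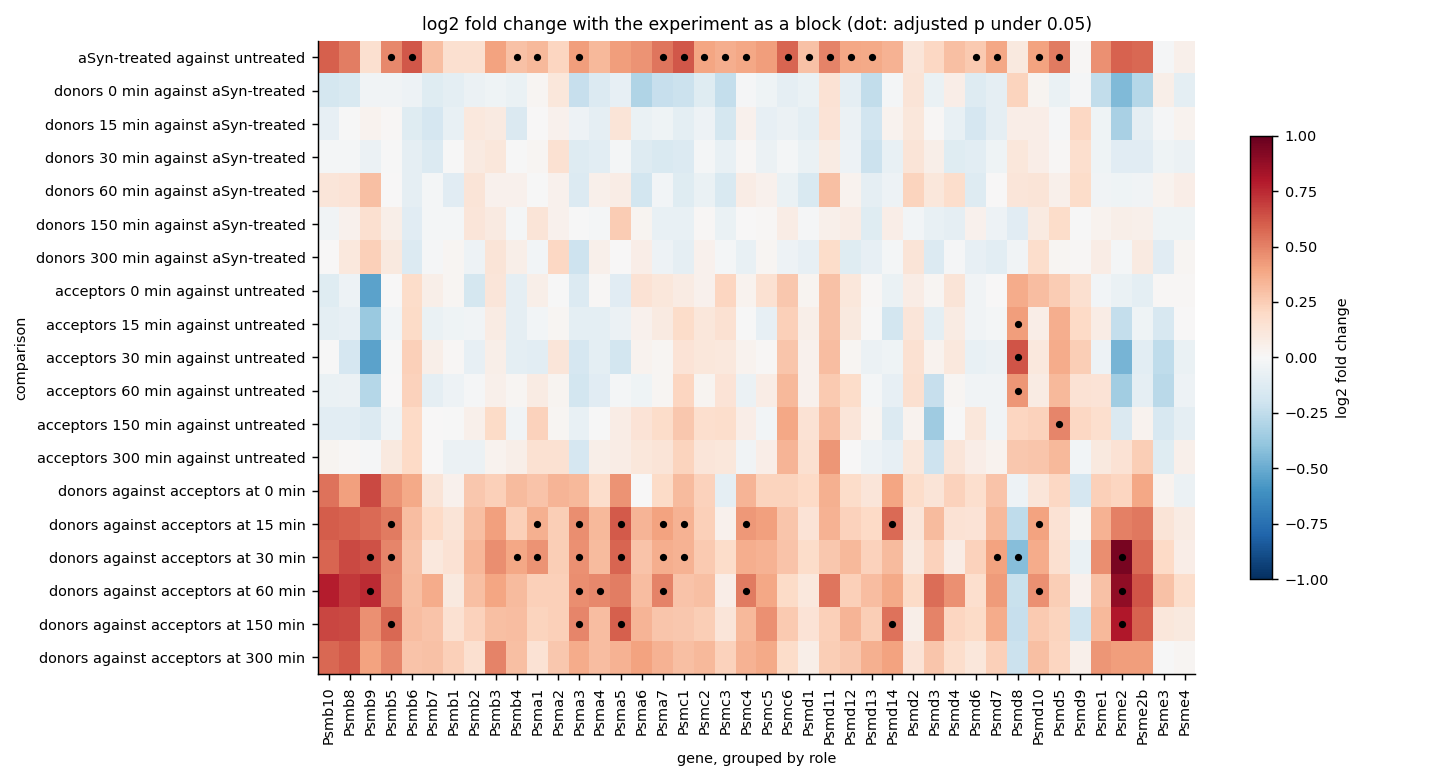
log2 fold change with the experiment as a block for 42 genes, ordered by role, in the 19 pairwise comparisons, with a dot where the adjusted p is under 0.05. The comparison of aSyn with no aSyn holds 19 dots, those of donors with aSyn-treated cells hold none, and those of donors with acceptors hold 9, 11, 7 and 5 from 15 to 150 min.

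No change with co-culture time was detected in edgeR, or in DESeq2 without the block. In F tests over the 6 times, 0 of the 44 genes passed in donors, in acceptors or in the interaction of population and time in edgeR, without or with the block. Of all genes 0.0607, 0.00759 and 0% passed in these 3 tests, and 0.577, 0.137 and 0.0456% with the block. At an unadjusted p under 0.05 none of the 44 passed without the block, and with it 2 did in acceptors, where 6.64% of all genes did. DESeq2 gave 0 in all 3 without the block, and with it 2 in donors and 4 in acceptors. The share of all genes that passed in DESeq2 is not given here, so these 2 counts have no background beside them. Psmd8 had the smallest p with the block among the 44, in acceptors (adjusted p = 0.377 in edgeR's quasi-likelihood test). Its mean in acceptors was 526, 508, 589.9, 507, 441 and 416 CPM at 0, 15, 30, 60, 150 and 300 min, over 3 experiments at 0 and 300 min and 4 at the others.

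**Figure D5:**
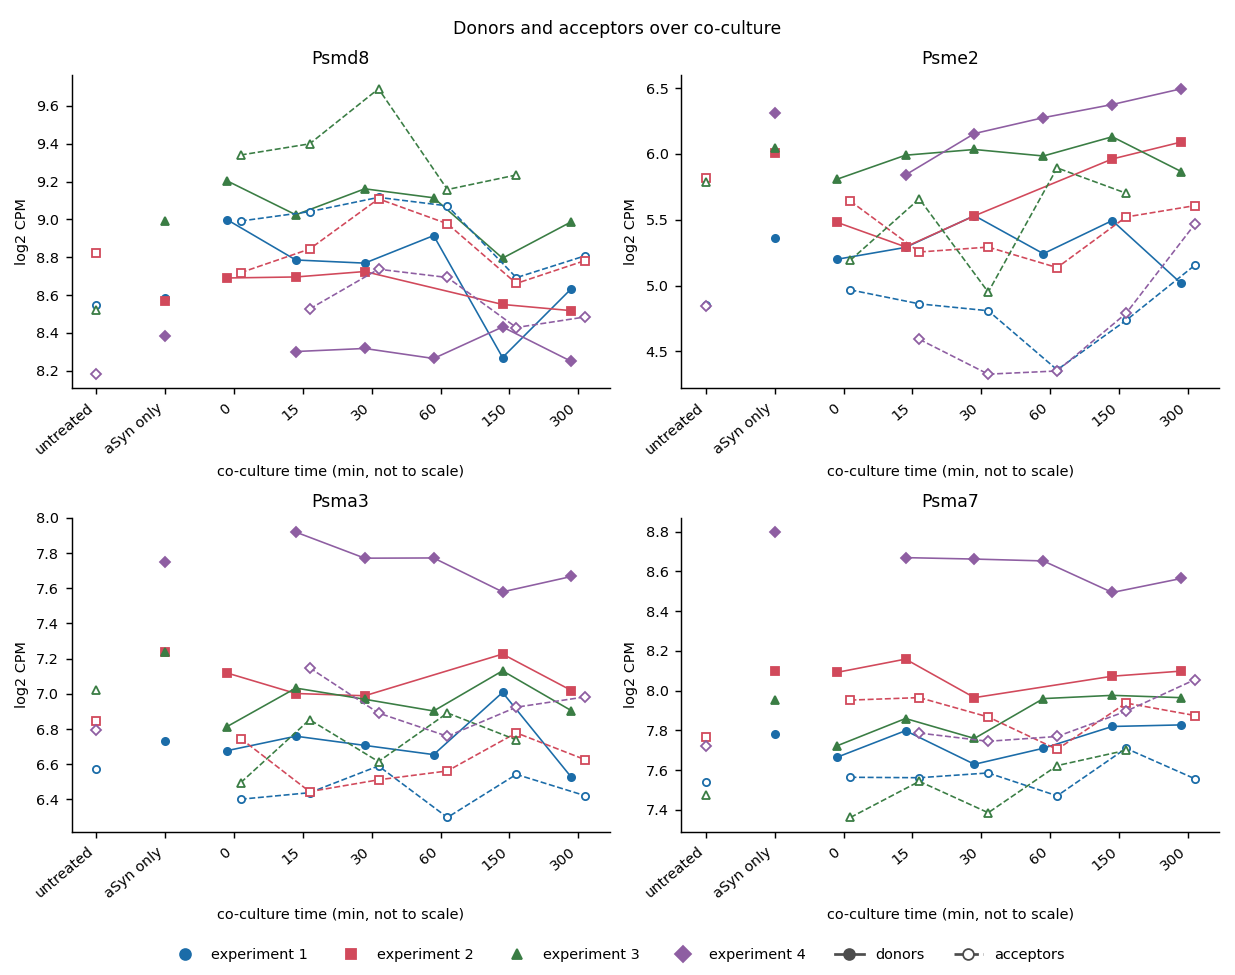
log2 CPM of Psmd8, Psme2, Psma3 and Psma7 in each experiment, with untreated and aSyn-treated cells beside donors (filled) and acceptors (open) by co-culture time in min. At 30 min Psmd8 is lower and Psme2 higher in donors than in acceptors in all 4 experiments.

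Across all 52 units the groups accounted for 33.2% and the experiments for 37.4% of the variance of log2 CPM in the median gene of the 44, beside 25.0 and 33.9% in the median of all genes tested. Groups accounted for 48.2, 59.9 and 32.0% of the variance of Psmb5, Psmb6 and Psmb7 and experiments for 27.4, 17.0 and 29.1%. For Psmb8, Psmb9 and Psmb10 the groups gave 26.0, 15.4 and 26.6% and the experiments 32.8, 71 and 40.4%. Of these genes Psmb6 and Psmb9 were furthest apart in each share, and Psmb8 was close to the median of all genes in both.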

How the data were processed

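RNA of primary mouse microglia was sequenced from transcript 3′ ends (QuantSeq, single reads of 50 bases) in 54 libraries of 14 groups. The deposited table gives counts per gene, and a second deposited table gives a normalized signal that equals the authors' count divided by 1 size factor per library for 100% of values (tolerance 0.06); it was used for that check only. STAR, Partek, DESeq2 and mm10 are named in the submitters' processing notes, and the annotation and the use of strand are not given in the sources used here.

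Untreated libraries with the same number were summed, because they differed less (chi-square per degree of freedom 12.1 and 10.3, genes with at least 20 counts) than other untreated pairs (24.2 to 288). The main test was edgeR 4.0.16 (R 4.3.3) with TMM scaling, filterByExpr at a minimum count of 10, means of all 14 groups and the quasi-likelihood F test, with Benjamini-Hochberg adjustment over 13169 genes and a threshold of 0.05, in 19 pairwise comparisons and 3 F tests. log2 CPM used a prior count of 2. Depth was 7807389 to 15537493 counts, with a median of 13036176. Samples with the same experiment number deviated together (r from 0.199 to 0.764 over the comparisons), so the number was taken to pair them, and the fit with it as a block is printed where it changes a call. The biological coefficient of variation was 38.1% without and 21.0% with the block.

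DESeq2 1.42.0, its size factors, no filter, only the groups compared, untreated libraries not summed and leaving out each experiment were the alternatives. Values were given for the 6 catalytic subunits, Psme1, Psme2 and Psme3 in every comparison, for other subunits that passed (the 10 largest changes where more did), for the 3 largest changes in each direction with aSyn, and for pathway genes that passed, apart from some not reported here, and Pomp, Tap1, Irf1 and Nfe2l1. The subunits and lists were chosen with earlier results of these data known. The test script was checked on simulated counts.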

Additional observations from a re-analysis of the deposited data

How the results depend on the processing

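Of the 44 genes, the 1 that passed for aSyn-treated against untreated cells became 19 with the experiment number as a replicate block, 21 with the block in DESeq2 and 17 with the block and DESeq2's size factors, and 0 with only the groups compared. Leaving out 1 experiment gave 0 to 1 without the block and 6 to 15 with it. In acceptors against untreated cells the block moved the count from 0 to 1 at 15, 30, 60 and 150 min, as did the block in DESeq2, and with the block and DESeq2's size factors it was 1 at 15, 30 and 60 min. Leaving out 1 experiment with the block gave 0 to 1 at 0, 15, 30, 60 and 150 min. In donors against acceptors the block moved 0 to 9, 11, 7 and 5 at 15, 30, 60 and 150 min. The block with DESeq2's size factors gave the same 4 counts, and the block in DESeq2 gave 1, 11, 14, 10, 7 and 1 at the 6 times. Leaving out 1 experiment with the block gave 0 to 13 at 0 min, 0 to 5 at 15 min, 2 to 7 at 30 min, 1 to 4 at 60 min and 0 to 4 at 150 min. DESeq2 without the block gave 1 at 30 min. Over the co-culture times the block in DESeq2 gave 2 in donors and 4 in acceptors. Shares of all genes are not given for the fits in DESeq2 or those that leave out an experiment. Their counts thus have no background beside them. The fits that combine the block with another choice were added after the data had been seen.

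For aSyn-treated against untreated cells the log2 fold change of Psmb9 turned from -0.02 to 0.16 with the block and to 0.44 without experiment 2, that of Psmb8 from 0.36 to -0.020 without experiment 4, and that of Psme3 from 0.01 to -0.0097 with the block, -0.05 without experiment 3 and -0.14 without experiment 4. Leaving out 1 experiment gave -0.12 to 0.44 for Psmb9, -0.020 to 0.96 for Psmb8 and -0.14 to 0.19 for Psme3. None of these passed the test, and the cause was not tested. Fewer samples enter the fits that leave out an experiment. At 3 or 4 experiments a group, the spread between experiments enters the SEs, which without the block were 0.41 for Psmb8 and 0.14 for Psmb6 with aSyn.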

Other observations

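Some genes of the ubiquitin, assembly and interferon lists passed with the experiment as a block in the co-cultures. These lists held 4, 13 and 15 genes tested, and not all that passed are given here. Of all genes 2.25, 3.60, 4 and 4.78% passed with the block in acceptors at 15, 30, 60 and 150 min. In acceptors against untreated cells, the interferon-signalling factor Stat2 was lower at 15, 30 and 60 min (log2 fold changes of -0.96, -0.99 and -0.93). Zfand2a, induced by proteotoxic stress, was higher at 30 and 60 min (0.50 and 0.70), and the polyubiquitin gene Ubb at 60 and 150 min (0.44 and 0.43). None of these passed in the fit without the block.

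In donors against acceptors, Adrm1, a ubiquitin receptor of the regulatory particle, was higher at 15, 30 and 150 min (0.45, 0.45 and 0.58 with the block). The chemokine gene Cxcl10 was higher at 0, 15, 30 and 60 min (1.54, 1.47, 1.61 and 1.40), and the interferon gamma receptor chain Ifngr1 was lower at the same times (-0.66, -0.60, -0.56 and -0.67). Without the block none of these passed either. Of all genes 4.28, 9.57, 10.8, 6.70 and 5.19% passed with the block at 0, 15, 30, 60 and 150 min.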
